A study of Rattus norvegicus with 6 samples.

Results

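The 7 subunits of respiratory complex I that are encoded in mitochondrial DNA (ND1, ND2, ND3, ND4, ND4L, ND5 and ND6) were followed in whole-lung RNA of rats in which ND1 was the target of mitochondrial base editing. They were picked by gene symbol, and all 7 were found among the 22835 genes of the count table and passed the filter on low counts, as 7 of 16548 genes tested. The ND1 cKO rats (ND1Sftpc-cre) carried Sftpc-Cre and LSL-DdCBE-ND1, and the control rats were ND1LSL littermates of the same age, which the sample labels call WT. All were female, 12 weeks old and on an SD background, with 3 rats per genotype. Sftpc-Cre acts through the promoter of surfactant protein C, a product of alveolar type 2 cells, so the editor is aimed at that lineage. The lung cells in which it became active cannot be seen in these data. A DdCBE is an editor made of a split cytidine deaminase carried to a chosen site by DNA-binding arms, and it changes bases in mitochondrial DNA. Cre, the active editor and the edit come together in ND1 cKO rats, so their effects cannot be told apart, and read counts do not show the edit.

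Complex I takes electrons from NADH, passes them to ubiquinone and pumps protons across the inner mitochondrial membrane. Its ND subunits form the membrane arm. ND1 lines the entrance of the quinone channel, ND3, ND4L and ND6 lie in the part next to it, and ND2, ND4 and ND5 are the antiporter-like proton channels. The remaining subunits are nuclear genes. Mammalian mitochondrial DNA is transcribed as long precursors of both strands that are cut into mature RNAs, and ND6 is the only protein gene read from the light strand. The remaining ND mRNAs share their precursor strand with the mRNAs of complexes III, IV and V, and can differ from them in processing and decay. Alveolar type 2 cells make surfactant and renew the alveolar epithelium.

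Between 36526203 and 37093879 reads were assigned to genes in ND1 cKO libraries, against 28669995 to 38303274 in control libraries. The libraries carried the markers of lung: the 8 alveolar type 2 genes examined summed to between 20652 and 33290 CPM (a gene's counts relative to the library total, scaled by TMM factors) in ND1 cKO and between 28193 and 32659 in control libraries. Sftpc, whose promoter drives the Cre, had between 5299 and 10372 CPM in ND1 cKO and between 12898 and 15467 in control libraries, with no overlap (log2 fold change -0.78 ± 0.24 SE, edgeR adjusted p = 0.133). The alveolar type 2 genes did not share a direction, with 3 positive and 5 negative (median log2 fold change -0.25, lowest -0.98). The positive ones were Sftpa1 at 0.63 ± 0.17, Napsa at 0.63 ± 0.18 and Sftpb at 0.16 ± 0.19. Of the 8 genes edgeR called 0, where it called 2.42% of all genes. At an unadjusted p below 0.05, 2 were higher, where 11.1% of all genes were higher, and 3 were lower. The share of all genes lower at that p was not counted, so the 3 have no background beside them. DESeq2 called Sftpa1 and Napsa higher and Sftpc and Etv5 lower, where it called 11.0% of all genes in either direction. In whole tissue, fewer cells of a type and less RNA per cell cannot be told apart. Markers of tissues rich in mitochondria were also examined. For cardiomyocytes, 14 of 15 markers were in the table and summed to between 23.4 and 44.0 CPM in ND1 cKO and between 21.3 and 148 CPM in control libraries, with Myh7 at 0 in every ND1 cKO library. For skeletal muscle, 13 of 14 were in the table and summed to between 147 and 285 CPM in ND1 cKO and between 46.4 and 67.4 CPM in control libraries. Without the actin gene Acta1 the remaining 12 summed to between 46.7 and 69.3 CPM in ND1 cKO and between 45.0 and 66.7 CPM in control libraries, and Myh8 was at 0 in 5 of the 6 libraries. The brown fat gene Ucp1 was at or below 0.0281 CPM in every library. Markers of other lung cells differed by genotype as well. The 8 endothelial genes summed to between 2406 and 2648 CPM in ND1 cKO and between 3947 and 4429 CPM in control libraries. The 7 alveolar type 1 genes summed to between 3103 and 5154 CPM in ND1 cKO and between 5823 and 7128 CPM in control libraries. Lower calls were 4 of 8 and 1 of 7 by edgeR, which called 2.42% of all genes in either direction. By DESeq2 they were 6 of 8 and 4 of 7, where it called 11.0% of all genes in either direction. The 7 alveolar macrophage genes summed to between 566 and 818 CPM in ND1 cKO and between 414 and 612 CPM in control libraries, which overlapped. Among them edgeR called Msr1 higher (1.08 ± 0.18, adjusted p = 0.0391) and Car4 lower (-0.88 ± 0.15, adjusted p = 0.0391), where it called 2.42% of all genes. Siglec1 was at 1.01 ± 0.20 (edgeR adjusted p = 0.0528). Reads from whole lung do not show which cell type the Msr1, Car4 or Siglec1 RNA came from. The part of cell composition in the values below was not tested.

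ND1, the targeted gene, had 3677, 3425 and 3735 CPM in the ND1 cKO libraries, against 2678, 2431 and 3082 CPM in the control libraries. Every ND1 cKO library lay above every control library, and the control libraries were spread more widely (coefficient of variation 12.0%) than the ND1 cKO libraries (4.56%). The log2 fold change of ND1 was 0.40 ± 0.12 (SE over 3 rats a genotype) and did not pass the test (edgeR adjusted p = 0.125).

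The 7 genes spread over a range of fold changes. On the scale of all genes, ND1 and ND5 were both about 1.3-fold higher in ND1 cKO lungs (1.32-fold and 1.30-fold), ND4 (1.01-fold) and ND4L (0.955-fold) lay near 1, and ND3, ND6 and ND2 stood between. By edgeR's quasi-likelihood test with Benjamini-Hochberg adjustment over all genes, 0 of the 7 passed, where 2.42% of all genes tested did. At an unadjusted p below 0.05, 3 of the 7 were higher (ND1, ND3 and ND5), against 11.1% of all genes. The same 3 had every ND1 cKO library above every control library, which held for 14.1% of all genes. The median log2 fold change was 0.29 over the 7 and 0.01 over all genes tested.

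**Figure D1:**
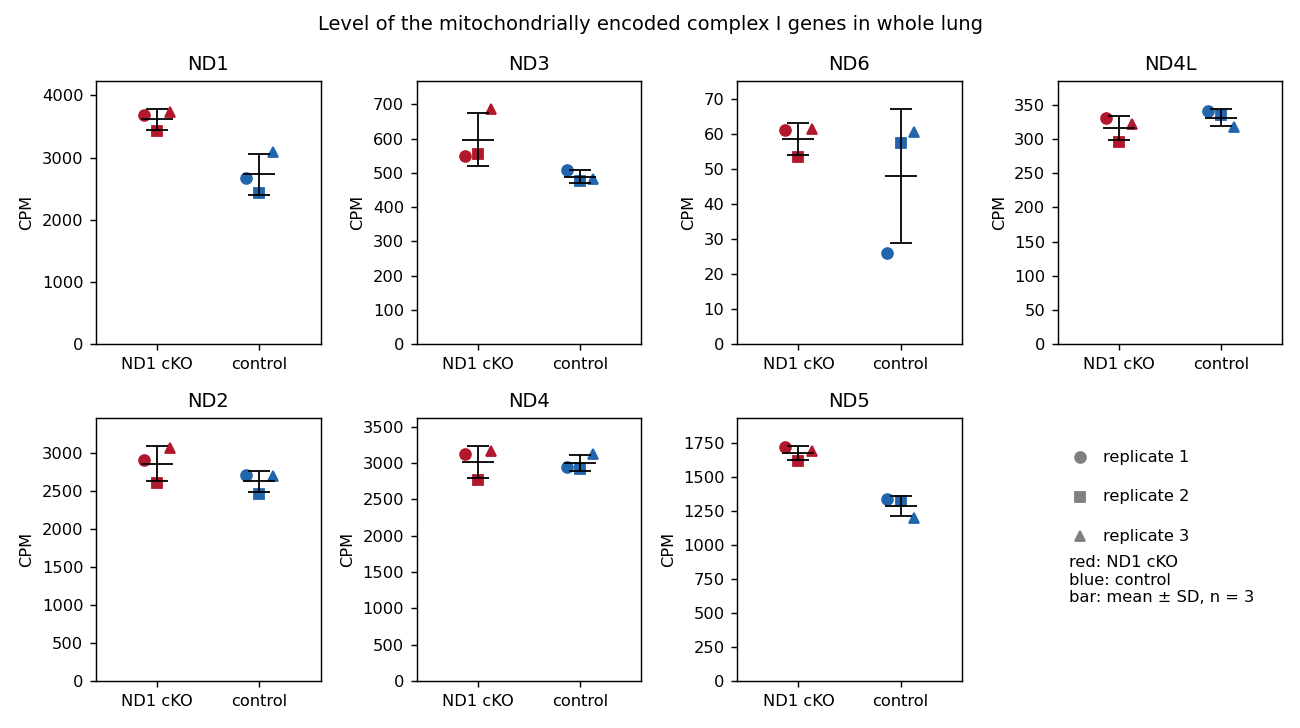
CPM (TMM-scaled, linear axis from 0) of each complex I gene of mitochondrial DNA, 1 point per rat, with ND1 cKO in red and control in blue and the mean ± SD (n = 3) as bars. ND1, ND3 and ND5 do not overlap between genotypes, ND2, ND4 and ND4L do, and ND6 has a single low control library at 26.1 CPM.

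Among the small subunits beside ND1, ND3 had 549, 556 and 686 CPM in ND1 cKO and 510, 476 and 482 CPM in control libraries (log2 fold change 0.29 ± 0.11, edgeR adjusted p = 0.202). The genotypes did not overlap, but ND1 cKO replicate 3 stood well above the other ND1 cKO libraries, and without it the log2 fold change was 0.17. ND4L had 330, 296 and 322 CPM in ND1 cKO and 341, 335 and 317 CPM in control libraries, which overlapped (-0.07 ± 0.08, edgeR adjusted p = 0.688). ND4L overlaps the start of ND4 on the mitochondrial genome, so the reads of the pair could be split or dropped in counting and both values are uncertain.

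ND6, the light-strand gene, had 60.9, 53.3 and 61.4 CPM in ND1 cKO, against 26.1, 57.4 and 60.3 CPM in control libraries. Control replicate 1 was low and the other 5 libraries lay close together. Its 995 counts have an exact 95% Poisson interval of 934 to 1059, counting error only, which lies below the 2128 and 1754 counts of the other control libraries. The ND6 log2 fold change was 0.29 ± 0.30 (edgeR adjusted p = 0.627) with all libraries and -0.01 without control replicate 1. Control replicate 1 was also the library with the highest cardiomyocyte sum, 148 CPM, whose part in this was not tested. The strand setting of the counting is not given, so ND6 reads and those of the heavy-strand precursor that covers ND6 in antisense cannot be told apart.

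Of the 3 antiporter-like subunits, only ND5 was free of overlap between genotypes. ND5, the outermost of them, had 1721, 1620 and 1691 CPM in ND1 cKO and 1337, 1321 and 1198 CPM in control libraries, with no overlap and little spread (0.38 ± 0.10, edgeR adjusted p = 0.0812). ND4, its neighbour in the membrane arm, had 3119, 2764 and 3166 CPM in ND1 cKO and 2949, 2917 and 3127 CPM in control libraries, fully overlapping (0.01 ± 0.11, edgeR adjusted p = 0.974). ND4 changed sign when libraries were scaled by their totals alone, and also in 4 of the 6 fits that leave out a library. ND2 had 2914, 2607 and 3067 CPM in ND1 cKO and 2716, 2465 and 2706 CPM in control libraries, also overlapping (0.12 ± 0.11, edgeR adjusted p = 0.565).

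DESeq2, the tool named in the study's design, called ND1 and ND5 higher (adjusted p = 0.0144 and 0.000969), 2 of the 7, where it called 5.73% of all genes higher. limma-voom with library weights called ND5 alone (adjusted p = 0.0382), where it called 2.86% of all genes higher. ND1, ND2, ND3, ND4L and ND5 kept the sign of their log2 fold change with each library left out in turn. ND1 was then between 0.33 and 0.50, and ND5 between 0.34 and 0.41.

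**Figure D2:**
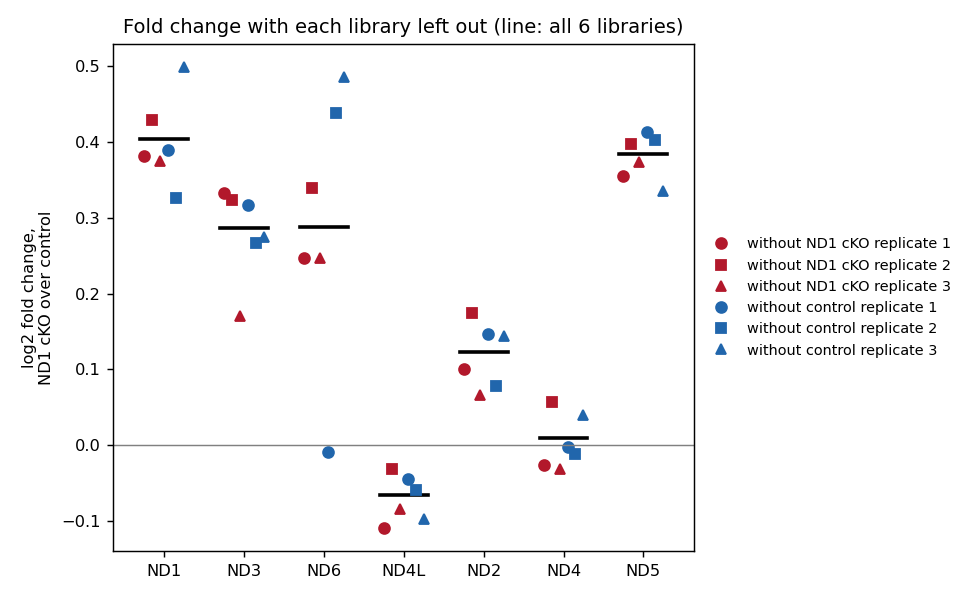
Log2 fold change (ND1 cKO over control, linear axis) of each complex I gene of mitochondrial DNA with 1 library left out, coloured by the genotype of that library (ND1 cKO red, control blue), and with all 6 libraries as a black line. ND1 and ND5 stay between 0.33 and 0.50, ND4 lies on both sides of 0, and ND6 drops to -0.01 without control replicate 1.

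Set against the mitochondrial mRNA pool, the complex I genes made up a smaller part in ND1 cKO lungs. Together the 7 held 22.5%, 21.7% and 21.7% of the counts of all 13 mitochondrially encoded genes in ND1 cKO libraries, against 26.2%, 27.1% and 26.2% in control libraries. The genotypes did not overlap, and the means were 22.0% ± 0.474 in ND1 cKO and 26.5% ± 0.545 in control lungs (SD, n = 3). As part of all counts in the library, the 7 made up more in ND1 cKO lungs, with 1.20% ± 0.0643 in ND1 cKO and 1.06% ± 0.0427 in control lungs and no overlap. The other 6 genes were COX1, COX2, COX3, ATP6, ATP8 and CYTB. They took 4.25% ± 0.221 of all counts in ND1 cKO and 2.96% ± 0.185 in control lungs. In the main edgeR fit with all libraries COX3 alone of the 6 passed (log2 fold change 0.65 ± 0.11, edgeR adjusted p = 0.0391). DESeq2 called 5 of the 6 higher, all but ATP8, where it called 5.73% of all genes higher. Under limma-voom with library weights 3 of the 6 were called, where it called 2.86% of all genes higher. COX1 was near the threshold in the main edgeR fit (adjusted p = 0.0505). It passed edgeR without the filter on low counts (adjusted p = 0.0400) and with a filter of 1 CPM in 3 libraries (adjusted p = 0.0456). Scaling by total counts only (edgeR adjusted p = 0.0444) or by DESeq2 size factors (edgeR adjusted p = 0.0490) and limma-voom (adjusted p = 0.0415) also passed COX1. It did not pass with the replicate block (edgeR adjusted p = 0.0741) or with any single library left out (edgeR adjusted p between 0.0525 and 0.177). The edgeR call of COX3 was lost with the replicate block (edgeR adjusted p = 0.0673). It was also lost without ND1 cKO replicate 1, ND1 cKO replicate 2 or any single control library (edgeR adjusted p between 0.0606 and 0.152). It was kept without ND1 cKO replicate 3 (edgeR adjusted p = 0.0380). A lower share was not particular to complex I genes: ATP6 held 9.27% ± 0.411 in ND1 cKO and 9.80% ± 0.0487 in control lungs and ATP8 0.305% ± 0.0193 in ND1 cKO and 0.372% ± 0.0204 in control lungs, both without overlap, and CYTB held 9.21% ± 0.610 in ND1 cKO and 9.86% ± 0.284 in control lungs, with overlap. COX1 and COX3, the cytochrome c oxidase genes with the highest fold changes, were higher without overlap, at 36.6% ± 0.954 and 14.3% ± 0.573 in ND1 cKO and 32.8% ± 0.277 and 12.7% ± 0.208 in control lungs. With COX1 and COX3 left out of the total, an alternative chosen after seeing the data, the 7 ND genes held 44.8% ± 1.11 in ND1 cKO and 48.6% ± 0.893 in control lungs. In relative terms their share was 17.0% lower in ND1 cKO with all 13 genes in the total and 7.85% lower without COX1 and COX3. Shares add up to a whole, so a higher share of some genes lowers that of the rest.

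**Figure D3:**
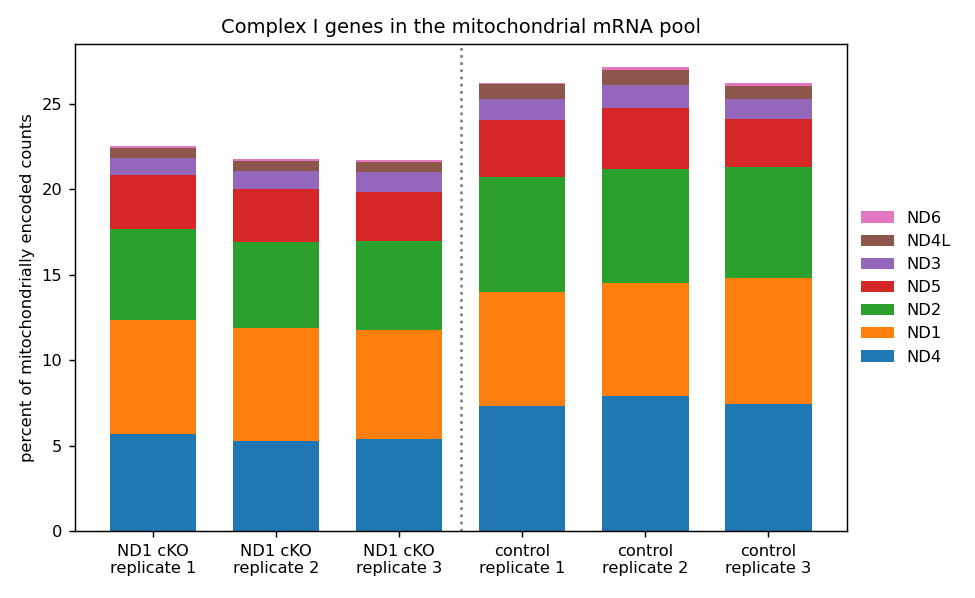
Stacked bars (linear axis from 0) of the percent of mitochondrially encoded counts held by each complex I gene, 1 bar per library with ND1 cKO on the left and control on the right. The stacks reach between 21.7% and 22.5% in ND1 cKO and between 26.2% and 27.1% in control libraries, and the narrower ND4 and ND2 segments make most of the gap.

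The gap was clear of overlap for ND4, ND2 and ND4L, while the shares of ND1, ND5, ND3 and ND6 overlapped between genotypes. This was not particular to the ND genes. Outside complex I the shares of ATP6, ATP8, COX1 and COX3 were free of overlap too, and those of COX2 and CYTB overlapped. ND4 held 5.68%, 5.31% and 5.39% of the pool in ND1 cKO and 7.32%, 7.91% and 7.46% in control libraries. ND2 held 5.31%, 5.01% and 5.23% in ND1 cKO and 6.74%, 6.69% and 6.46% in control libraries. ND4L held 0.602%, 0.568% and 0.549% in ND1 cKO and 0.846%, 0.909% and 0.756% in control libraries. In each of these genes all ND1 cKO libraries lay below all control libraries, and the two-sided exact permutation p was 0.1, the smallest that 3 against 3 allows. ND1 held 6.70%, 6.58% and 6.36% in ND1 cKO and 6.65%, 6.59% and 7.35% in control libraries, which overlapped (exact permutation p = 0.4). ND5 (3.04% ± 0.140 in ND1 cKO, 3.25% ± 0.366 in control), ND3 (1.08% ± 0.0849 in ND1 cKO, 1.24% ± 0.0759 in control) and ND6 (0.106% ± 0.00447 in ND1 cKO, 0.122% ± 0.0495 in control) overlapped as well, with exact permutation p-values of 0.5, 0.2 and 0.6. With 7 such tests none could pass after adjustment.

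With the counts of the 13 mitochondrially encoded genes as the library size, edgeR gives fold changes relative to the pool. ND4L (-0.55 ± 0.12, adjusted p = 0.00706), ND4 (-0.47 ± 0.12, adjusted p = 0.0124) and ND2 (-0.36 ± 0.12, adjusted p = 0.0315) fell in this edgeR fit, while ND1 (-0.07 ± 0.12, adjusted p = 0.649), ND5 (-0.10 ± 0.13, adjusted p = 0.548), ND3 (-0.20 ± 0.12, adjusted p = 0.189) and ND6 (-0.20 ± 0.30, adjusted p = 0.609) did not pass. Outside complex I, the same edgeR fit called ATP8 lower (-0.29 ± 0.11, adjusted p = 0.0497), and ATP6 (-0.08 ± 0.12) and CYTB (-0.10 ± 0.12) were negative without passing. On this scale 47.7% of all genes tested were called lower, because nuclear genes are then set against a pool that is larger in ND1 cKO, so 3 of 7 is close to the background and the adjustment is lenient. With each library left out, ND4L was called in 6 of 6 fits, ND4 in 5 of 6 and ND2 in 1 of 6. Those 6 fits called between 29.7% and 47.1% of all genes in either direction, so these calls too stand against a high background. Without control replicate 2 only ND4L of the 7 was called. Without control replicate 1 ND6 was called lower (-0.50, edgeR adjusted p = 0.0190) in place of ND2. With COX1 and COX3 out of the pool 0 of the 7 were called by edgeR, where 17.3% of all genes were, and ND4L (adjusted p = 0.0551) and ND4 (adjusted p = 0.109) had the lowest edgeR values.

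**Figure D4:**
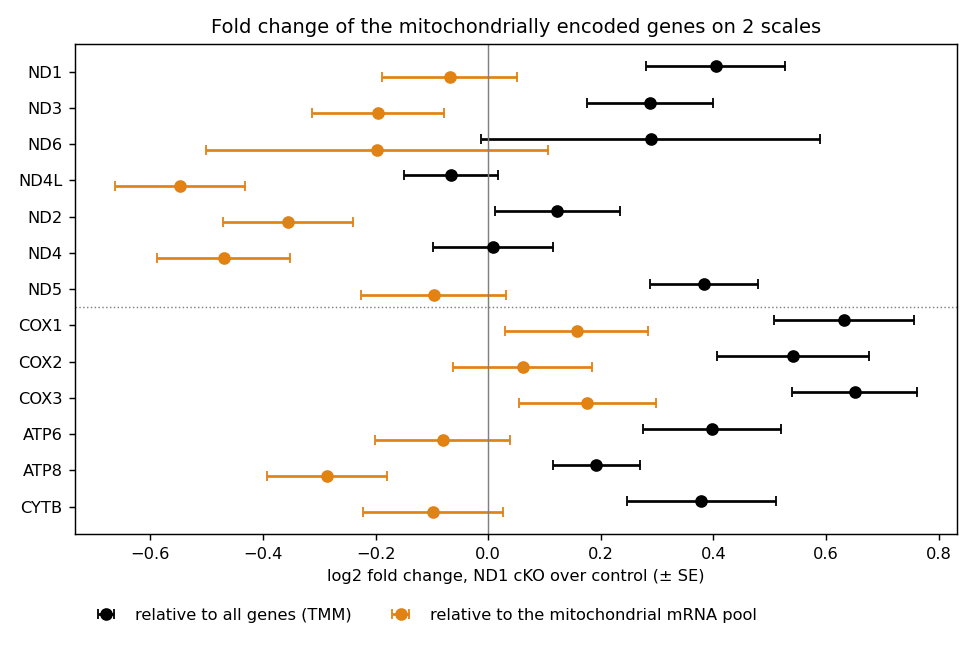
Log2 fold change (ND1 cKO over control, ± SE, n = 3 per genotype) of the 13 mitochondrially encoded genes relative to all genes (black) and to the mitochondrial mRNA pool (orange), with the complex I genes above the dotted line. ND1 at 0.40 on the scale of all genes is at -0.07 relative to the pool, while ND4L, ND4 and ND2 are at -0.55, -0.47 and -0.36.

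Ratios within a library do not depend on how libraries are scaled. ND1 and ND2 are close neighbours on the heavy strand. The ND1 to ND2 count ratio was 1.26, 1.31 and 1.22 in ND1 cKO, against 0.986, 0.986 and 1.14 in control libraries, without overlap. The mean log2 ratio was 0.34 ± 0.05 in ND1 cKO and 0.05 ± 0.12 in control lungs (SD, n = 3), a difference of 0.29 (two-sided exact permutation p = 0.1, the smallest possible). An edgeR fit with ND2 counts as the library size, added after seeing the data, put the same difference at 0.29 with an adjusted p of 0.270, so a difference between ND1 and ND2 in their response did not pass, and 2.60% of all genes did. A ratio to ND2 free of overlap was not particular to ND1. The log2 ratio of ND5 to ND2 was higher without overlap (difference 0.26). Those of ND4 and ND4L to ND2 were lower without overlap (-0.11 and -0.19), and those of ND3 and ND6 overlapped.

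The ND5 to ND4 log2 ratio was -0.86, -0.77 and -0.90 in ND1 cKO and -1.14, -1.14 and -1.38 in control libraries, a difference of 0.38 without overlap (exact permutation p = 0.1). ND4L kept pace with ND4, at log2 ratios of -3.24, -3.22 and -3.30 in ND1 cKO and -3.11, -3.12 and -3.30 in control libraries, which overlapped (difference -0.07, exact permutation p = 0.4). ND1 against COX1 gave -2.42, -2.52 and -2.51 in ND1 cKO and -2.30, -2.31 and -2.17 in control libraries, lower in all ND1 cKO libraries by a mean of 0.22 (difference -0.22, exact permutation p = 0.1). Thus ND1 had a higher ratio to ND2 and a lower ratio to COX1 in every ND1 cKO library. Within the counts of the 7 ND genes alone, ND1 made up 29.8% ± 0.457 in ND1 cKO and 25.9% ± 1.95 in control lungs, without overlap, and ND4 24.8% ± 0.402 in ND1 cKO and 28.5% ± 0.611 in control lungs. In all, 12 log2 ratios were compared, and with 3 rats a genotype none could pass.

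Across the 6 libraries, which share the genotype difference, the log2 CPM of ND1 followed those of CYTB (Pearson r = 0.96), ATP6 (0.96) and COX1 (0.96) more closely than those of ND2 (0.78), ND5 (0.78), ND3 (0.76), ND6 (0.47), ND4 (0.38) and ND4L (-0.50). Among the 10482 genes outside the 13 that averaged 10 CPM or more, Lurap1l (r = 0.998), Prr15l (0.989) and Tm9sf1 (0.988) were most like ND1, and 35 had r above 0.95. These are descriptions over 6 libraries in which many genes differ by genotype.

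Most nuclear genes of complex I had positive log2 fold changes, with no gene past the edgeR test and summed levels that overlapped between genotypes. The core genes summed to between 443 and 511 CPM in ND1 cKO and between 399 and 454 CPM in control libraries, and the accessory genes to between 1348 and 1501 CPM in ND1 cKO and between 1100 and 1379 CPM in control libraries. Of the 7 core genes 1 was free of overlap, and of the 30 accessory genes 12 were. Over all genes tested, 28.2% were free of overlap in either direction and 14.1% had every ND1 cKO library above. All 7 nuclear core subunits, which hold the flavin, the iron-sulphur centres and part of the quinone site, had positive log2 fold changes (median 0.16). Among the lowest p-values were those of Ndufs8, which carries iron-sulphur centres (0.34 ± 0.11, edgeR adjusted p = 0.128), and Ndufs1, which also carries iron-sulphur centres (0.17 ± 0.10, edgeR adjusted p = 0.350). Of 30 accessory subunits 28 were positive (median 0.18), and the lowest p-values were those of Ndufb2 (0.55 ± 0.14, edgeR adjusted p = 0.0850), Ndufb6 (0.38 ± 0.11, edgeR adjusted p = 0.0999) and Ndufa1 (0.44 ± 0.13, edgeR adjusted p = 0.112). For comparison, 51.9% of all genes tested were positive. Of core and accessory genes 0 passed with edgeR, 2 and 6 had an unadjusted p below 0.05, all higher, and DESeq2 called 0 and 2. Over all genes, edgeR called 2.42%, 11.1% were higher at an unadjusted p below 0.05, and DESeq2 called 5.73% higher.

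Assembly factors, which build complex I and are not part of the finished enzyme, were at 9 positive and 10 negative of 19 tested (median -0.01), with 0 called by edgeR or DESeq2 and 0 at an unadjusted p below 0.05. Their lowest p-values were those of Lyrm2 (0.19 ± 0.10), Ndufaf7 (0.18 ± 0.11) and Ndufaf3 (-0.14 ± 0.09), with edgeR adjusted p-values of 0.318, 0.374 and 0.419. Counts of the 7 ND genes over counts of the 37 nuclear subunits were 6.65, 5.63 and 7.11 in ND1 cKO, against 5.76, 6.68 and 6.63 in control libraries, so the balance between the mitochondrial and nuclear transcripts of complex I overlapped between genotypes.

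**Figure D5:**
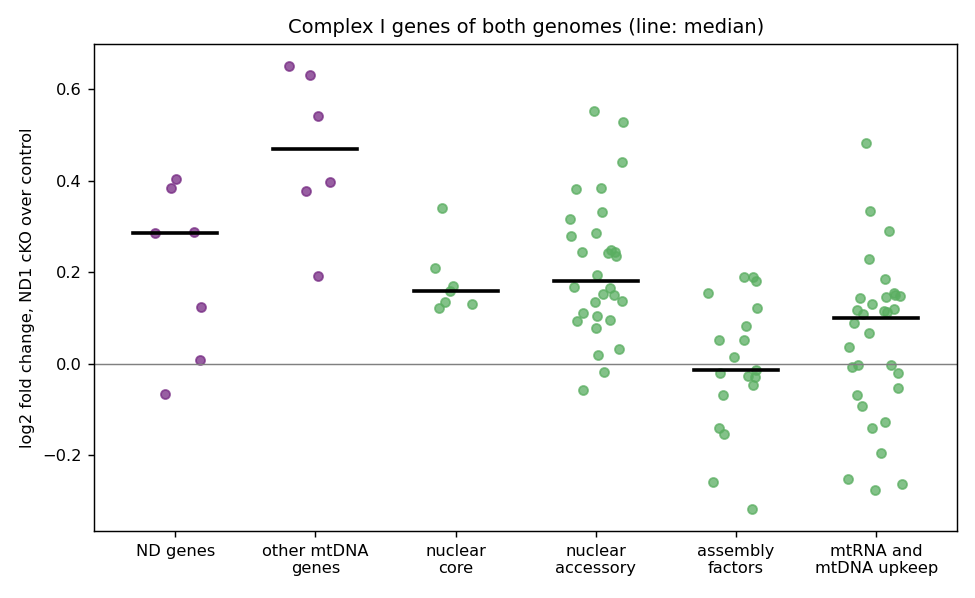
Log2 fold change (ND1 cKO over control, all-gene scale) of each gene in 6 lists, 1 point per gene and the median as a black line, with mitochondrially encoded genes in purple and nuclear genes in green. Medians are 0.29 for the ND genes, 0.47 for the other mitochondrially encoded genes, 0.16 and 0.18 for nuclear core and accessory subunits, -0.01 for assembly factors and 0.10 for genes of mitochondrial RNA and DNA upkeep.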

How the data were processed

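Whole-lung RNA was sequenced as paired-end reads, 1 library per rat. The values are raw read counts by gene symbol as deposited, in whole numbers, and each column was tied to its sample by the column name in the sample description (0 columns were left over). The submitters' processing notes list HTSeq, HISAT2, fastp, R 4.3.3 and DESeq2, with roles, genome build, annotation and strand setting not given in the sources used here. The members and all lists were chosen with earlier results of these data known. All genes kept by filterByExpr were fitted with edgeR 4.0.16 (quasi-likelihood, robust, TMM, genotype only, two-sided, Benjamini-Hochberg over all genes, called below 0.05), and the fit was checked on simulated data. SEs were obtained by dividing the size of the log2 fold change by the root of its F statistic. Alternatives used DESeq2 1.42.0, limma 3.58.1, other scalings and filters, a replicate block and each library left out. Shares and ratios came from raw counts and were compared by exact permutation (scipy 1.17.1). Named genes were all members, the 3 lowest p-values and any called gene of each pathway list, and the 3 genes most correlated with ND1, except 1 gene that is not reported here. Gene lengths for mitochondrial DNA were not used here, so levels are not compared between genes. The series description gives a separate rat per library, and no pair of libraries agreed within sampling noise (chi-square per degree of freedom at least 23.7).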

Additional observations from a re-analysis of the deposited data

How the results depend on the processing

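The count of 0 of 7 ND genes called was 3 with mitochondrial counts as the library size, 2 with DESeq2 and 1 with limma-voom and library weights, and 0 in the remaining planned fits. In either direction the first 3 settings called 49.1%, 11.0% and 5.83% of all genes, against 2.42% in the main fit. ND1 was called in the DESeq2 fit alone (0.40). Relative to the mitochondrial pool the signs of ND1 (-0.068), ND2 (-0.36), ND3 (-0.20), ND4 (-0.47), ND5 (-0.10) and ND6 (-0.20) were negative. ND4 was -0.029 with total counts only. With a library left out ND4 ranged over -0.032 to 0.057 and ND6 over -0.0092 to 0.49. Over all genes, edgeR called 2.42% with all libraries and at most 1.09% without 1 of the control libraries. It called 0.137%, 2.15% and 2.95% without ND1 cKO replicate 1, 2 and 3. The pool-relative count of 3 ranged over 1 to 3 when a library was dropped, where between 29.7% and 47.1% of all genes were called. It was 0 without COX1 and COX3 in the pool, where 17.3% of all genes were called. The gap in the summed ND share was -3.33 points without the overlapping pairs (18.9% in ND1 cKO, 22.2% in control), -3.82 without COX1 and COX3 (44.8% in ND1 cKO, 48.6% in control), and between -4.79 and -4.20 with a library left out. Relative to control it was 17.0% in the full pool, 15.0% without the pairs and 7.85% without COX1 and COX3. The gap in the ND1 share was -0.672 points without the pairs, against -0.318. The ND1 ratio was -0.072 against the other 12 genes in place of ND2. The cause of these shifts was not tested.

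Replicate numbers were shared by both genotypes, but deviations of same-numbered libraries correlated at 0.17, 0.02 and 0.13, so they are not treated as pairs, although each library correlated best with its own number. With the replicate block ND1 was at 0.41 (edgeR adjusted p = 0.127), 0 of 7 genes were called, and the ND1 to ND2 difference of 0.29 had a sign-flip permutation p of 0.25, the smallest 3 pairs allow. Counts per coding base were not run, since lengths were not used here. ND6, the lowest of the 7, had at least 995 counts in every library.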

Other observations

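Genes that transcribe, process and degrade mitochondrial RNA or maintain mitochondrial DNA gave no edgeR call among 32 tested (19 positive, median log2 fold change 0.10). At an unadjusted p below 0.05, 4 of the 32 were higher and 0 lower, near the background, as 11.1% of all genes were higher. The 3 lowest p-values were those of Fastkd1, Tbrg4 and Fastk, which encode FASTK-type mitochondrial RNA-binding proteins. The other listed members of that family were at 0.11 (Fastkd2), -0.0033 (Fastkd3) and -0.25 (Fastkd5), named after their values were seen. Fastkd1 had 14.0, 13.9 and 11.8 CPM in ND1 cKO and 9.41, 9.88 and 9.05 CPM in control libraries, without overlap (0.48 ± 0.13, edgeR adjusted p = 0.0906). DESeq2 called it, as 1 of the 32, where it called 5.73% of all genes higher. Tbrg4, also known as Fastkd4, was at 0.33 ± 0.11 (edgeR adjusted p = 0.133) and Fastk, whose protein is known in mouse and human cells to maintain ND6 mRNA, at 0.23 ± 0.08 (edgeR adjusted p = 0.176). Tfam, which packages mitochondrial DNA, was at -0.07 and the RNA polymerase Polrmt at -0.26, both named after their values were seen and neither past the test.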
